A study of Mus musculus with 23 samples.

Results

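The astrocyte identity genes were 39 of the 24411 genes in a count table of cortical astrocyte RNA. They were chosen by symbol, as transcription factors of the astrocyte lineage and genes known to be abundant in mature astrocytes, and every one of the 39 passed the filter on low counts in each comparison. The table held 23 libraries from mice at postnatal day 70 that were labelled male. Each was from astrocytes of the cerebral cortex captured with magnetic beads against the surface antigen ACSA-2. All mice carried 2 floxed copies of Aldh7a1, a gene for an aldehyde dehydrogenase of lysine breakdown, and the study's design text has all of them injected with 4-hydroxytamoxifen at postnatal days 3 to 4. ConAstro mice (n = 4, control diet) had no Cre. cKOAstro mice (n = 7, control diet) also carried Slc1a3-CreER on 1 allele. The other two groups ate sulforaphane (SFN), which activates the antioxidant regulator NRF2, in their diet from postnatal day 21: SFN-fed ConAstro (n = 5) had the control genotype, and SFN-fed cKOAstro (n = 7) had Cre. Because Cre sits in the Slc1a3 locus and the control littermates lack it, loss of Aldh7a1 cannot be told apart from loss of 1 Slc1a3 copy or from the presence of CreER.

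Astrocytes arise from radial glia, in which SOX9 and the nuclear factor I proteins switch on glial genes while Notch signalling, through its targets HES1 and HES5, holds back neuronal fate. Mature astrocytes then carry a characteristic set of transporters, receptors, metabolic enzymes and secreted proteins, by which they buffer ions, take up transmitters, supply lipids and clear debris. Regional homeobox factors such as EMX2 and LHX2 remain from the patterning of the cortex.

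The targeted gene was read first. Aldh7a1 was at 177 to 226 CPM (counts scaled to library size with the trimmed mean of M values, TMM) in 8 of the 9 libraries labelled as controls and at 43.0 to 77.2 CPM in 13 of the 14 labelled as cKO. The exceptions were SFN-fed ConAstro replicate 1, where it was at 55.7 CPM, and SFN-fed cKOAstro replicate 2, where it was at 222 CPM. Slc1a3, of which Cre replaces 1 copy, was at 2100.1 and 4436 CPM in these libraries, beside 3964 to 5674 CPM in the other controls and 1559 to 2870.0 CPM in the other cKO libraries. Esr1, a gene for an oestrogen receptor such as the one fused to Cre in CreER, was at 20.0 and 0.533 CPM, beside 0.651 to 1.74 and 16.0 to 24.8 CPM. Both went against the same 2 labels. The library labelled cKOAstro replicate 2 held Xist at 1541 CPM although it was labelled male. Ddx3y, a gene of the Y chromosome, was at 0.0077 CPM there and at 83.6 to 114 CPM in the others. All libraries were kept under their labels, and counts are also given without the 2 libraries whose Aldh7a1 went against the label. Totals lay between 46890715 and 391701247 counts per library, and the lowest count of any member in any library was 1012. In ConAstro the totals were 74771451 to 84049525 and in cKOAstro 107847897 to 391701247. These ranges did not overlap, so depth and genotype cannot be told apart on the control diet. In addition, 6 libraries had names of another kind (Astro-named: 3 SFN-fed cKOAstro, 2 cKOAstro and 1 SFN-fed ConAstro). The other names began with a number, which was 143 in all 4 ConAstro libraries, 141 (3 libraries) or 146 (2) in cKOAstro, 145 (2) or 147 (2) in SFN-fed ConAstro, and 143 (3) or 147 (1) in SFN-fed cKOAstro. What the names mark was not stated. Because cKOAstro and SFN-fed ConAstro shared no kind of name with ConAstro, name and group cannot be told apart in those comparisons, and values by name are given where they bear on a result. Per the study's methods each library is 1 animal, and p-values measure only the spread between these libraries.

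The members were among the most abundant transcripts of these preparations. Per kilobase of exon, 32 of 39 lay above the 90th percentile of 16627 ranked genes in ConAstro and 37 above the 75th, with a median percentile of 98.33 and a lowest of 72.77, for Hes1. The highest was Clu, which encodes the secreted chaperone clusterin, at 1266 ± 87.8 CPM per kilobase (SD, n = 4). Aldoc, the brain aldolase of glycolysis, followed at 1043 ± 86.0, then Gpr37l1, an orphan receptor of glia, at 893 ± 88.5, the serine protease gene Htra1 at 611 ± 36.1, and Mfge8, whose product bridges dying cells to phagocytes, at 540.2 ± 83.7 CPM per kilobase. Gpr37l1 and Aldoc differed by less than the sum of their SDs, as did Htra1 and Mfge8. The lowest members were Papss2, a synthase of the sulfate donor for proteoglycans, at 14.9 ± 2.53, the phospholipase C gene Plcd4 at 14.7 ± 0.351, Nfib at 12.5 ± 1.06, the nuclear receptor gene Rorb at 10.9 ± 2.00 and Hes1 at 10.3 ± 1.26 CPM per kilobase. Among neighbours in this order of the last 5, only Plcd4 and Nfib differed by more than the sum of their SDs. The label of cortical astrocytes was also checked on genes outside the list. Aqp4 and Aldh1l1, both markers of mature astrocytes, were detected in all 23 libraries at means of 719 and 349 CPM. Of 8 genes of caudal regions, Hoxa5 and Hoxb5, which mark spinal cord and hindbrain, were at 0 counts in 19 and 20 of the 23 libraries, En1 in 9 and Irx2 in 1. The other four were detected in every library, with means of 6.20 CPM for En2, a midbrain and hindbrain factor, 2.39 for Irx3, 2.38 for Irx5 and 0.503 for Irx1, beside 3.30 CPM for the dorsal telencephalic factor Emx1. RNA of other cells was also present, and 8 oligodendrocyte markers summed to 21668 to 56204 CPM per library.

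**Figure D1:**
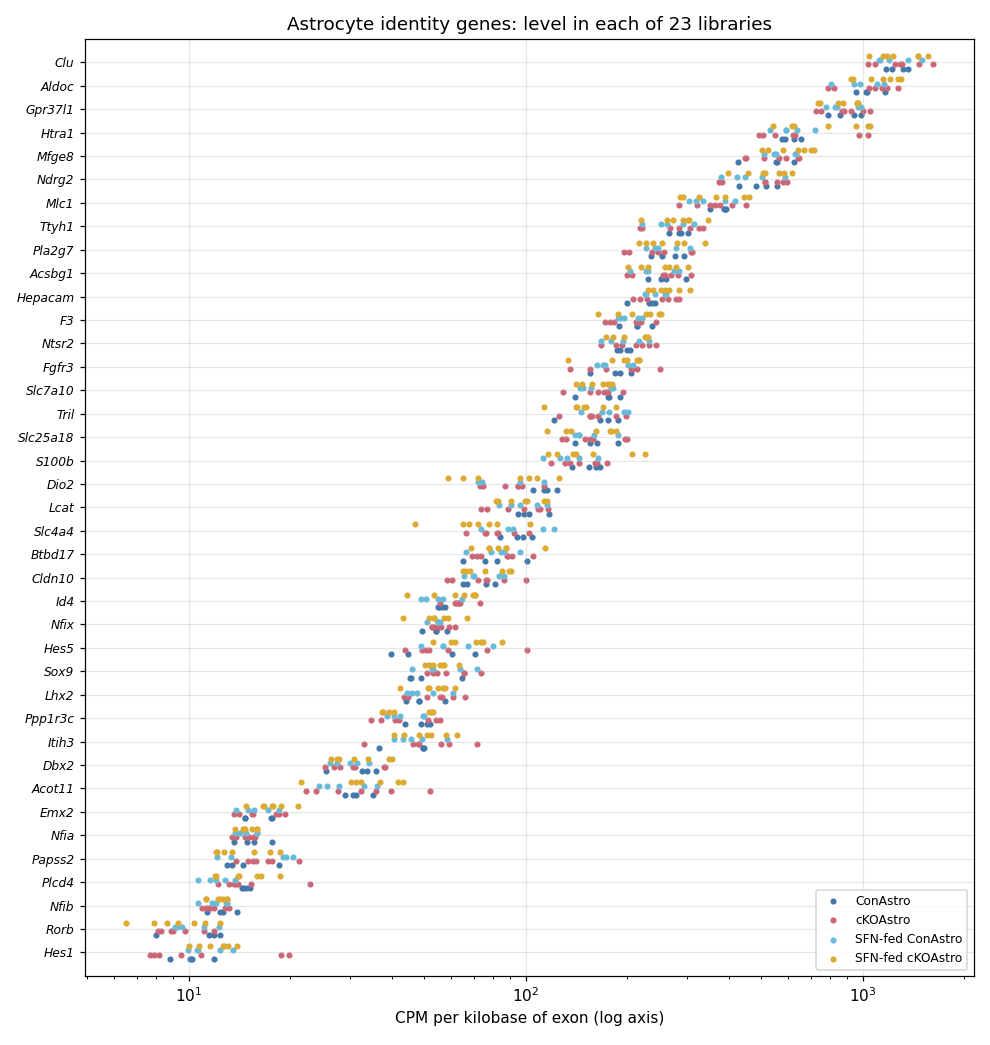
CPM per kilobase of exon (log axis) of the 39 members in each of 23 libraries, 1 point per library, coloured by group and ordered by the ConAstro mean. Levels spanned from about 10.3 (Hes1) to 1266 (Clu) CPM per kilobase, and the ranges of any 2 groups overlapped except for Plcd4 in ConAstro and SFN-fed ConAstro.

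Within each group the members tended to vary together. They were higher or lower together from library to library, and this shared shift followed 18 other astrocyte genes (Aqp4, Gja1, Slc1a2, Apoe and others) that are not members. In the library cKOAstro replicate 6 the members summed to 35142 CPM and the 18 other genes to 73158 CPM, and 34 of 39 members were above their own mean over all libraries. In cKOAstro replicate 1 the sums were 24720.1 and 50319 CPM, and only 3 members were above their mean. cKOAstro replicate 7 had 24340.3 and 50380.1 CPM with 1 member above its mean. Both kinds of library occurred within groups: the median deviation of the members from their own means ran from -0.13 to 0.14 log2 units across ConAstro, -0.28 to 0.23 across cKOAstro, -0.17 to 0.15 across SFN-fed ConAstro and -0.23 to 0.16 in the SFN-fed cKOAstro libraries. Every group held libraries on either side of 0. In cKOAstro this shift went with the library name: the members summed to 24340.3 to 29049.9 CPM in the 3 libraries named 141 (replicates 1, 5 and 7), 33214 to 35142 CPM in the 2 named 146 (replicates 3 and 6) and 32102 to 33218 CPM in the 2 Astro-named ones. The ranges of the 141 and 146 libraries did not overlap, whereas the 4 ConAstro libraries, all named 143, covered 27241 to 32684 CPM. What part the preparations behind a name had in this was not tested. SFN-fed cKOAstro replicate 4, with members at 25398 CPM, had the highest sum of oligodendrocyte markers, at 56204 CPM. cKOAstro replicates 1 and 7, with lower sums of members, had 28247 and 26056 CPM of oligodendrocyte markers, inside the range of the remaining libraries. Within cKOAstro, replicate 7 had the highest sums of microglial and ependymal markers (2544 and 571 CPM) and the lowest of endothelial ones (213 CPM). Replicate 1 had the highest sum of oligodendrocyte precursor markers (684 CPM) and the lowest of neuronal ones (336 CPM). The part of these cells was not tested. In bulk RNA, fewer astrocytes in a preparation and less RNA of these genes per astrocyte cannot be told apart.

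**Figure D2:**
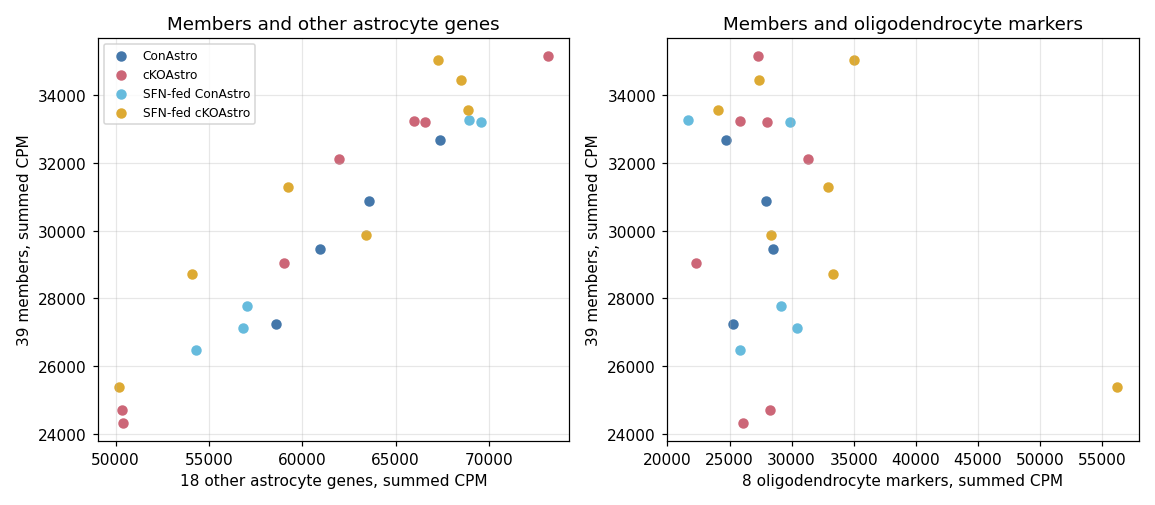
Summed CPM of the 39 members in each library (vertical axes) against the summed CPM of 18 other astrocyte genes (left) and of 8 oligodendrocyte markers (right), 1 point per library, coloured by group. The members' sum (24340 to 35142 CPM) moved with that of the other astrocyte genes, with libraries of all 4 groups at both low and high sums, while a single SFN-fed cKOAstro library had oligodendrocyte markers at 56204 CPM.

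The members differed in how far they took part in this shift. The pooled SD of log2 CPM within groups had a median of 0.22 over the 39 members, beside 0.22 over all genes and 0.15 over the 7607 genes that were at least as abundant as the lowest member. Relative to the median of the 18 other astrocyte genes in the same library, the SD became smaller for 34 of 39 members, with a median of 0.14. The smallest relative SDs were those of Gpr37l1 (SD of 0.17 and 0.064 log2 units before and after), Lhx2 (0.19 and 0.068), Acsbg1, an acyl-CoA synthetase gene (0.21 and 0.075), Clu (0.20 and 0.080) and Aldoc (0.21 and 0.084). Of these, Clu stayed within -0.14 to 0.21 log2 units of its mean ratio to the other astrocyte genes in all 23 libraries. Between cKOAstro replicates 6 and 1, the highest and lowest of that group by the sum of the 18 other genes, Clu differed by a ratio of 1.56, Aldoc by 1.61 and the claudin gene Cldn10 by 1.71, with a median ratio of 1.36 over the members. The nuclear factor I genes had the smallest SDs of all members before the adjustment, at 0.10 for Nfia, 0.10 for Nfib and 0.13 for Nfix, and larger ones after it (0.14, 0.14 and 0.23). Their ratios between the same libraries were 1.07, 1.13 and 0.945. At the other end, Hes1, Htra1 and Hes5 varied most within groups, with SDs of 0.36, 0.34 and 0.33 log2 units, and kept nearly all of it relative to the other astrocyte genes (0.33, 0.30 and 0.33).

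**Figure D3:**
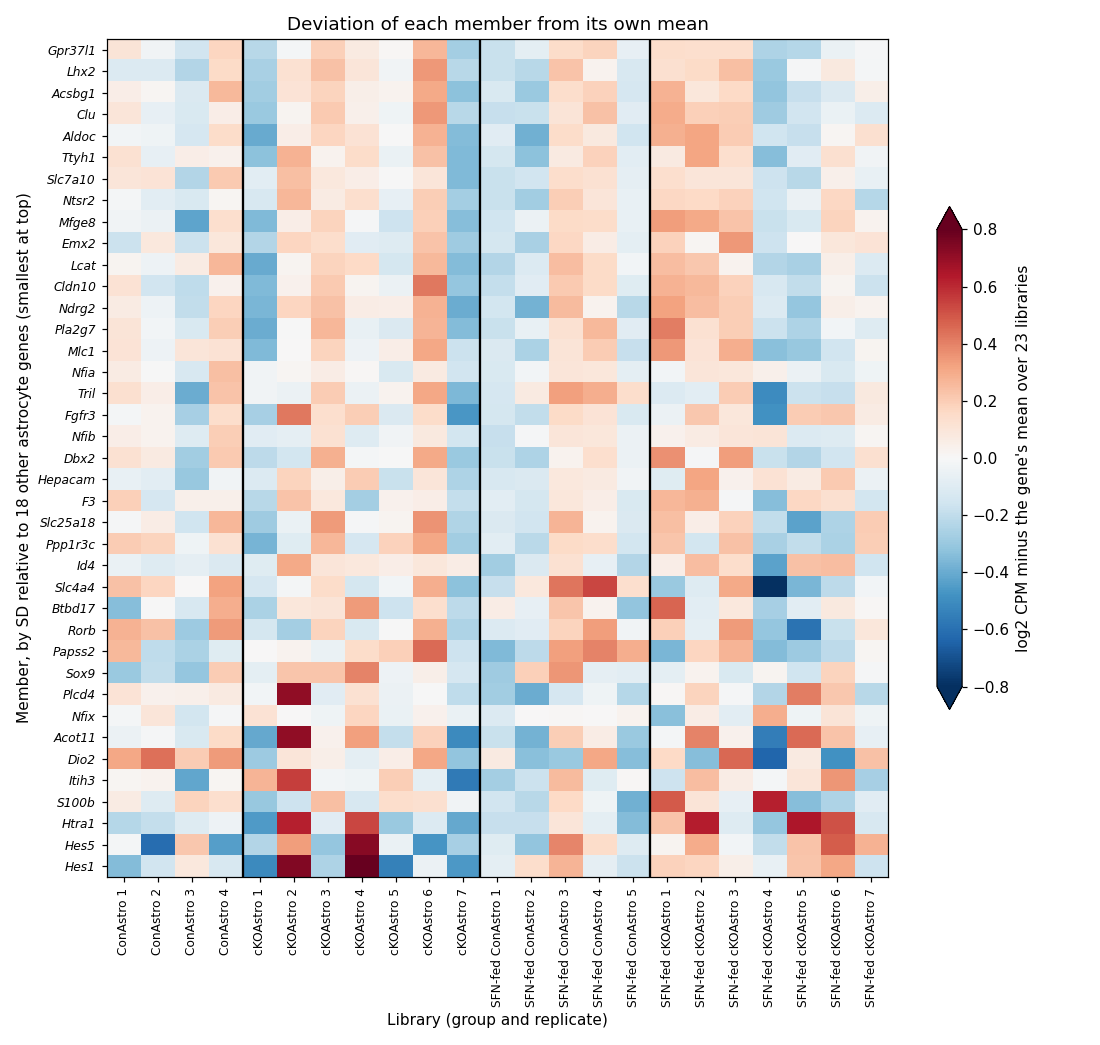
Heat map of log2 CPM minus each member's mean over 23 libraries, for 39 members (rows, ordered by SD relative to 18 other astrocyte genes) in 23 libraries (columns, black lines between groups). The upper rows change colour together from library to library, as in cKOAstro replicates 1, 6 and 7. Hes1, Hes5 and Htra1 at the bottom depart from this, with high values in cKOAstro replicates 2 and 4. Htra1 was also high in SFN-fed cKOAstro replicates 2, 5 and 6.

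In cKOAstro the library names also separated some members. Of the Astro-named cKOAstro libraries, replicate 2 was the one labelled male that held Xist at 1541 CPM. Of the 39 members, 8 were higher in both Astro-named cKOAstro libraries (replicates 2 and 4) than in all 5 numbered ones, namely Sox9, Hes1, Hes5, Hepacam, Fgfr3, Acot11, Plcd4 and Htra1, and 0 were lower in both. This is 20.5% of the members, all above the numbered range. Of 17302 genes over the count filter, 25.1% lay outside that range, 1967 above it and 2376 below it. Hes1 was at 38.1 and 40.3 CPM in those libraries and at 15.7 to 22.1 CPM in the others. Hes5 was at 105 and 137 CPM against 59.7 to 80.1 CPM. Htra1 was at 2983 and 2799.9 CPM against 1414 to 1815 CPM. In SFN-fed cKOAstro the names gave another set. In that group the Astro-named replicate 4 had the most oligodendrocyte marker RNA, and the numbered replicate 2 went against its label. There, 0 members were higher in all 3 Astro-named libraries (replicates 4 to 6) than in the 4 numbered ones, and 9 were lower, namely Dbx2, Rorb, Slc25a18, Mlc1, Gpr37l1, Tril, Aldoc, Acsbg1 and Ppp1r3c. This is 23.1% of the members, all below the numbered range. Of 17302 genes, 9.11% lay outside that range, 677 above it and 899 below it. Hes1 was at 21.9, 26.6 and 28.3 CPM in the Astro-named and 20.4 to 26.0 CPM in the numbered libraries of that group, Hes5 at 72.5, 97.0 and 116 against 81.7 to 102 CPM, and Htra1 at 1563, 3030.0 and 2755 against 1771 to 2994 CPM, so that the ranges of all 3 genes overlapped.

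Hes5, like Hes1, is known as a target of Notch, through binding sites for RBPJ, the DNA-binding partner of the Notch intracellular domain. The start region of Hes5 is shown because Hes5 and Hes1 varied most among the transcription factors. RefSeq promoter windows (GRCm38.p6, 250 bases before to 50 after each start) were found for 35 members, in 49 windows, and were lacking for Sox9, Nfib, Hes1 and Clu. The RBPJ motif GTGGGAA was searched on both strands and was present in 6.38% of 32851 windows and in 5 of the 49 windows of members, those of Hes5, Mfge8, Aldoc (2 windows) and Tril. The NFI palindrome was in 0.0365% of all windows and the SOX motif AACAATGG in 1.05%, and neither was in a window of a member. The 250 bases before the start of Hes5 (chr4:154960673-154960922, plus strand) hold the RBPJ motif at positions -226 to -220, on the minus strand, and at -83 to -77, on the plus strand. Stretches around the motif before the starts of Mfge8 (chr7:79149122-79149158, minus strand) and Aldoc (chr11:78322930-78322966, plus strand) are given beside it, 5′ to 3′ in the direction of transcription, with the motif in capitals.
Hes5: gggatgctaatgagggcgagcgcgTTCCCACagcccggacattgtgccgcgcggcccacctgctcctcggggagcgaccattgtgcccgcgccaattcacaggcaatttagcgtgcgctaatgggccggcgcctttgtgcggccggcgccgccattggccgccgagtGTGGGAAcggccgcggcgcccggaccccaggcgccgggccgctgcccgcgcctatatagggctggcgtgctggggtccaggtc
Mfge8: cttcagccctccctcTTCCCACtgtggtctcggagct
Aldoc: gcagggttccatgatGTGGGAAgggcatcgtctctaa
Hes5 was the single member with more than 1 match in a window. Mfge8 and Aldoc, with 1 match each in these windows, had relative SDs of 0.089 and 0.084 log2 units, Tril of 0.14 and Hes5 of 0.33. Htra1, without a match, had 0.30, and Hes1, without a window, had 0.33. A link between matches and SDs was not tested. A match is a description of letters, and binding was not measured.

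Among the 11 transcription factors, Sox9 was at 189, 202, 187 and 267 CPM in ConAstro and between 211 and 305 CPM (median 239) in cKOAstro. Of the ConAstro libraries, only replicate 4 lay inside the cKOAstro range. SFN-fed ConAstro libraries had 191, 264, 297, 220.0 and 219 CPM, and SFN-fed cKOAstro libraries lay between 207 and 262 CPM (median 229.9). Id4, an inhibitor of basic helix-loop-helix factors, was nearly constant in ConAstro at 221, 213, 218 and 211 CPM, and lay between 214 and 282 CPM (median 243) in cKOAstro, where 1 of 7 libraries fell inside the ConAstro range. In SFN-fed ConAstro it was at 188, 211, 249.2, 218 and 195 CPM, and in SFN-fed cKOAstro it lay between 170.4 and 272 CPM (median 253). The groups overlapped for both genes. Hes5 was at 82.1, 54.3, 96.5 and 61.1 CPM in ConAstro, 77.4, 66.8, 109, 91.8 and 77.2 CPM in SFN-fed ConAstro and between 72.5 and 116 CPM (median 97.0) in SFN-fed cKOAstro. The higher 2 of the ConAstro libraries lay inside the ranges of both SFN-fed groups. Hes1 was at 17.97, 20.6, 24.2 and 20.9 CPM in ConAstro and lay between 20.4 and 28.3 CPM (median 25.8) in SFN-fed cKOAstro.

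The remaining factors had group means that differed, between any 2 groups, by less than the larger of the SDs. Nfia was at 169 ± 18.4 CPM (SD, n = 4) in ConAstro, 161 ± 9.28 CPM (SD, n = 7) in cKOAstro, 162 ± 11.04 CPM (SD, n = 5) in SFN-fed ConAstro and 163 ± 8.93 CPM (SD, n = 7) in SFN-fed cKOAstro. Nfib was at 188 ± 15.8 CPM (SD, n = 4) in ConAstro and 177 ± 12.6 CPM (SD, n = 7) in cKOAstro, and Nfix at 398 ± 27.3 CPM (SD, n = 4) and 410.4 ± 25.5 CPM (SD, n = 7). The highest Nfix, 492 CPM, was in the library with the most oligodendrocyte marker RNA, whose part in it was not tested. Lhx2, a LIM homeobox factor of the cortical primordium, was at 218 ± 25.3 CPM (SD, n = 4) in ConAstro and 237 ± 36.3 CPM (SD, n = 7) in cKOAstro. Emx2, the homeobox factor of the dorsal telencephalon, was at 48.4 ± 4.99 CPM (SD, n = 4) and 49.2 ± 6.91 CPM (SD, n = 7). Dbx2, a homeobox factor known from neural tube patterning, was at 111 ± 15.6 CPM (SD, n = 4) and 108 ± 17.8 CPM (SD, n = 7). Rorb was at 121 ± 22.1 CPM (SD, n = 4) and 106 ± 16.0 CPM (SD, n = 7).

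On the control diet, 0 of 39 members passed the edgeR quasi-likelihood test in cKOAstro against ConAstro (Benjamini-Hochberg adjusted p under 0.05 over 17406 genes, of which 0.023% passed). The comparison asks whether loss of Aldh7a1 in astrocytes changes their identity transcripts. DESeq2 and limma-voom also called 0 members, beside 0.0461% and 0.023% of all genes. At an unadjusted p under 0.05 there were 2 members (Dio2 and Id4), or 5.13%, beside 3.74% of all genes. None of the 39 had CPM values that separated the groups, beside 0.494% of all genes. The members' median log2 fold change was 0.013, beside -0.0072 for all genes, and 21 of 39 were above 0. By role, 7 of 11 transcription factors, 2 of 7 transport and membrane genes, 2 of 5 receptors, 4 of 7 enzymes, 4 of 6 secreted proteins and 2 of the 3 others were above 0.

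The largest difference on that diet was in Dio2, the deiodinase that activates thyroid hormone in the brain and is made mainly by astrocytes. It was at 659, 721, 612 and 673 CPM in ConAstro and between 426 and 659 CPM (median 549.7) in cKOAstro. One cKOAstro library, replicate 6, reached into the ConAstro range. Its log2 fold change was -0.34 ± 0.11 (SE, 95% interval -0.58 to -0.10, edgeR adjusted p = 0.981). For Sox9 the value was 0.23 ± 0.12 (SE, 95% interval -0.035 to 0.49, edgeR adjusted p = 0.981). Slc4a4, the sodium bicarbonate cotransporter of astrocytes, was at 1065, 1017, 906 and 1132 CPM in ConAstro and between 719 and 1107 CPM (median 889) in cKOAstro, with a log2 fold change of -0.21 ± 0.11 (SE, 95% interval -0.45 to 0.020, edgeR adjusted p = 0.981). For Id4 it was 0.17 ± 0.066 (SE, 95% interval 0.023 to 0.31, edgeR adjusted p = 0.981). The intervals describe the edgeR fit of the 2 groups alone, which has no term for library name or depth. In that fit, those of 36 of 39 members excluded a change of 1.5-fold or more in either direction. The widest was that of Hes1, at 0.19 ± 0.28 (SE, 95% interval -0.42 to 0.80), whose high values were in the Astro-named libraries. Among the numbered libraries alone, the log2 fold changes of Dio2, Slc4a4, Sox9 and Id4 were -0.34, -0.17, 0.15 and 0.14. Sox9 had 0.14 with the kind of name (Astro or numbered) as a covariate and 0.36 without ConAstro replicate 4. With the name prefix as a term in a fit over all 4 groups, 0 members passed, beside 0 of all genes. That fit links cKOAstro to ConAstro only through libraries of the SFN-fed groups. The values of Dio2 and Slc4a4 were then -0.066 ± 0.31 (SE, edgeR adjusted p = 0.98) and 0.015 ± 0.22 (SE, edgeR adjusted p = 0.995), that of Sox9 0.44 ± 0.18 (SE, edgeR adjusted p = 0.923), and the members' median 0.29.

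**Figure D4:**
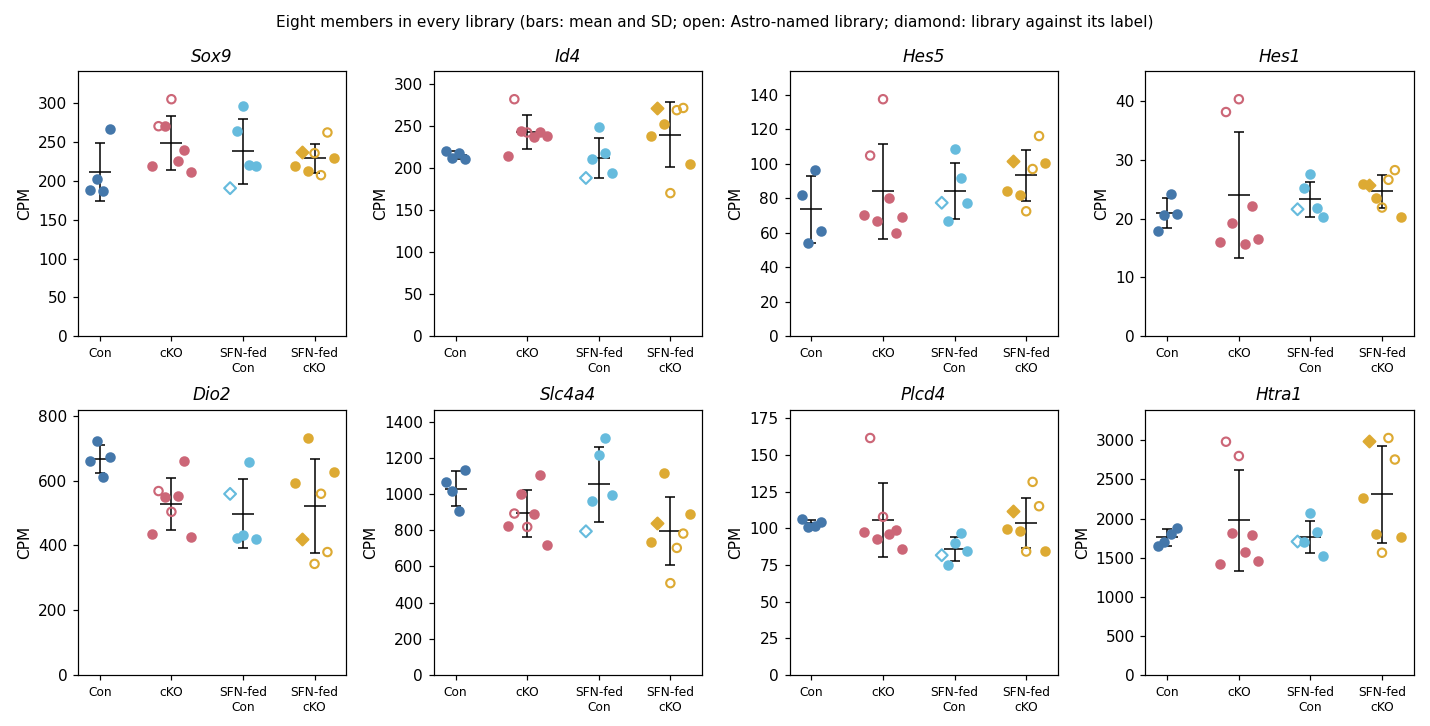
CPM of 8 members in every library, by group, with the group mean and SD in black (filled: numbered library; open: Astro-named library; diamond: a library whose Aldh7a1 level goes against its label). The axes start at 0. Dio2 lay at 612 to 721 CPM in ConAstro and lower in most other libraries, and the 2 open cKOAstro points stand above the filled ones for Hes1, Hes5 and Htra1.

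Under SFN, 0 of 39 members passed in SFN-fed cKOAstro against SFN-fed ConAstro, and neither did any of the 16672 genes tested (edgeR, 0%). This comparison asks the same question of mice on the NRF2-activating diet. Unadjusted p-values under 0.05 were found for 3 members (7.69%: Slc4a4, Htra1 and Plcd4), beside 20.3% of all genes. DESeq2 called 0 members and 2.55% of all genes, and no member separated the groups, beside 1.23%. Only limma-voom with quality weights called members, 3 of 39 (7.69%) beside 26.4% of all genes, namely Htra1 (log2 fold change 0.53 ± 0.14, limma adjusted p = 0.0159), Plcd4 (0.34 ± 0.091, limma adjusted p = 0.0198) and Id4 (0.28 ± 0.090, limma adjusted p = 0.0388). Without the 2 libraries that went against their labels, limma-voom called 0 members and 3 genes in all, and edgeR 0 members and 2 genes. The median of the members was 0.064, beside 0.0073 for all genes, with 32 of 39 above 0. Without those 2 libraries it was 0.021, and among numbered libraries alone 0.11.

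Slc4a4 was at 794, 959, 1214, 1309.8 and 993 CPM in SFN-fed ConAstro and between 508 and 1115 CPM (median 782) in SFN-fed cKOAstro, with a log2 fold change of -0.41 ± 0.17 (SE, 95% interval -0.78 to -0.035, edgeR adjusted p = 0.224). Its lowest value was in the library with the most oligodendrocyte marker RNA. Htra1 was at 1707, 1705, 2071, 1832 and 1523 CPM and between 1563 and 3030.0 CPM (median 2269), with a log2 fold change of 0.38 ± 0.17 (SE, 95% interval 0.0081 to 0.76, edgeR adjusted p = 0.24). Its 2 highest values, 3030.0 and 2994 CPM, were in replicates 5 and 2, the latter against its label. Plcd4 was at 81.7, 75.3, 90.3, 96.7 and 84.7 CPM and between 84.2 and 132 CPM (median 99.5), with a log2 fold change of 0.27 ± 0.11 (SE, 95% interval 0.034 to 0.51, edgeR adjusted p = 0.213). Among numbered libraries alone Plcd4 had 0.17, and with the name prefix as a term Slc4a4 had -0.16 ± 0.15 (SE, edgeR adjusted p = 0.814). Markers of other cells lay mostly on one side of 0 in the same fit: 8 of 8 endothelial, 7 of 7 mural and 5 of 5 fibroblast markers had log2 fold changes below 0 (medians -0.74, -0.48 and -0.75) and 7 of 8 oligodendrocyte markers above 0 (median 0.28). Below 0 were also 8 of 8 microglial and 4 of 5 OPC markers (medians -0.54 and -0.52), and 5 of 5 ependymal markers were above 0 (median 0.27). In SFN-fed ConAstro their summed levels were 439.6 to 699.9 CPM for endothelial and 21668 to 30399 CPM for oligodendrocyte markers. In SFN-fed cKOAstro they were 175 to 699.9 and 24092 to 56204 CPM. None of these markers passed the edgeR threshold, and their part in the members' values was not tested.

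The effect of the diet in control mice was read in SFN-fed ConAstro against ConAstro. No member passed (0 of 39, beside 0% of 16509 genes, edgeR). DESeq2 called 0 members and 0.14% of all genes, and limma-voom 0 members and 0% of all genes. There were 2 members (5.13%), Dio2 and Plcd4, at an unadjusted p under 0.05, beside 6.54% of all genes. One member (2.56%) had values that separated the groups, beside 1.93% of all genes. It was Plcd4, at 107, 101, 102 and 104 CPM in ConAstro and 81.7, 75.3, 90.3, 96.7 and 84.7 CPM in SFN-fed ConAstro, with a log2 fold change of -0.28 ± 0.066 (SE, 95% interval -0.43 to -0.13, edgeR adjusted p = 0.762). The ConAstro mean was 104 ± 2.47 CPM (SD, n = 4). Dio2 was at 559, 421, 432, 657 and 420.4 CPM in SFN-fed ConAstro, where 4 of 5 libraries were below every ConAstro library and replicate 4 was inside their range. Its log2 fold change was -0.43 ± 0.14 (SE, 95% interval -0.73 to -0.12, edgeR adjusted p = 0.762). S100b, the calcium-binding protein used as an astrocyte marker, was at 228, 203, 247 and 239.5 CPM and 196, 187, 244, 213 and 167 CPM, with -0.20 ± 0.11 (SE, 95% interval -0.43 to 0.040, edgeR adjusted p = 0.791). The members' median was -0.029, beside -0.0055 for all genes, and 13 of 39 were above 0. Among numbered libraries alone the median was 0.0083, and Plcd4 and Dio2 had -0.27 and -0.48. With the name prefix as a term Dio2 had -0.28 ± 0.29 (SE, edgeR adjusted p = 0.914), Plcd4 -0.35 ± 0.22 (SE, edgeR adjusted p = 0.793) and S100b -0.068 ± 0.29 (SE, edgeR adjusted p = 0.988).

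In cKO mice, SFN-fed cKOAstro against cKOAstro again gave 0 of 39 members past the edgeR threshold, beside 0% of 16903 genes. Here 0 members had an unadjusted p under 0.05, beside 10.9% of all genes. DESeq2 and limma-voom called 0 members, beside 0.0691% and 0% of all genes, and 0 members separated the groups, beside 0.0947%. The median was 0.021, beside 0.0061 for all genes, with 23 of 39 above 0, and 0.11 among numbered libraries alone. The largest differences were those of Htra1 at 0.23 ± 0.21 (SE, 95% interval -0.22 to 0.67, edgeR adjusted p = 0.671), Papss2 at -0.18 ± 0.12 (SE, 95% interval -0.43 to 0.062, edgeR adjusted p = 0.531) and Mfge8 at 0.17 ± 0.11 (SE, 95% interval -0.071 to 0.42, edgeR adjusted p = 0.548). Papss2 lay between 51.3 and 78.9 CPM (median 58.7) in cKOAstro and between 44.7 and 69.5 CPM (median 49.9) in SFN-fed cKOAstro. Mfge8 lay between 2094 and 3046 CPM (median 2649) and between 2364 and 3367 CPM (median 3023). These ranges overlapped. In this fit, without a term for library name, the interval excluded a 1.5-fold change for 38 of 39 members. Papss2 had -0.11 without cKOAstro replicate 6 and -0.087 among numbered libraries alone, where Htra1 and Mfge8 had 0.43 and 0.28. Htra1 had 0.35 without cKOAstro replicate 2, 0.34 without replicate 4, 0.15 without SFN-fed cKOAstro replicate 5 and 0.50 by limma-voom. With the name prefix as a term, where only Astro-named libraries link these groups directly, the directions of Htra1 and Mfge8 turned, to -0.29 ± 0.22 (SE, edgeR adjusted p = 0.908) and -0.048 ± 0.15 (SE, edgeR adjusted p = 0.986), Papss2 had -0.39 ± 0.18 (SE, edgeR adjusted p = 0.895), and the members' median was -0.19.

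SFN-fed cKOAstro was also set against untreated ConAstro. The count of members past the edgeR threshold was 0 of 39, beside 0% of 16753 genes, and DESeq2 called 0 members and 0.048% of all genes. The single member (2.56%) with an unadjusted p under 0.05 was Slc4a4, beside 8.67% of all genes. limma-voom called 1 member (2.56%), Hes5 (log2 fold change 0.58 ± 0.14, adjusted p = 0.0493), beside 3.92% of all genes, and 0 without the 2 libraries that went against their labels. No member separated the groups, beside 1.45%. In the edgeR fit Hes5 had 0.33 ± 0.16 (SE, 95% interval -0.025 to 0.68, edgeR adjusted p = 0.557), Slc4a4 -0.39 ± 0.17 (SE, 95% interval -0.75 to -0.024, edgeR adjusted p = 0.557), Htra1 0.38 ± 0.19 (SE, 95% interval -0.032 to 0.78, edgeR adjusted p = 0.557) and Dio2 -0.37 ± 0.19 (SE, 95% interval -0.78 to 0.046, edgeR adjusted p = 0.56). Among numbered libraries alone Slc4a4 and Dio2 had -0.22 and -0.19, and with the replicate number as a block Htra1 had 0.24. The libraries named 143 were 4 of ConAstro and 3 of SFN-fed cKOAstro (replicates 1, 2 and 7, of which replicate 2 went against its label). Within them 0 members passed, beside 0 of all genes. There Slc4a4, Dio2 and Htra1 had -0.34 ± 0.12 (SE, edgeR adjusted p = 0.551), -0.30 ± 0.14 (SE, edgeR adjusted p = 0.551) and 0.40 ± 0.17 (SE, edgeR adjusted p = 0.551), with a median of 0.088 over the members. For Dio2 the SFN-fed cKOAstro libraries lay between 343 and 731 CPM (median 559), a range that includes all ConAstro values. The median was 0.0085, beside -0.014 for all genes. This comparison shares its ConAstro libraries with the comparison of cKOAstro and ConAstro, where Dio2 and Slc4a4 had -0.34 and -0.21, and its SFN-fed cKOAstro libraries with the comparison of genotypes under SFN, where they had 0.064 and -0.41.

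Whether the diet acted differently in the 2 genotypes was tested by the interaction term over all 4 groups. Of 39 members 0 passed the edgeR threshold (0% of 17302 genes) and 0 had an unadjusted p under 0.05, beside 7.32% of all genes. DESeq2 called 0 members and 0.0174% of all genes, and limma-voom 0 members and 0%. Dio2 had the largest term, 0.40 ± 0.24 (SE, 95% interval -0.10 to 0.91, edgeR adjusted p = 0.702): the diet difference was -0.43 in control and -0.017 in cKO mice. Papss2 had -0.37 ± 0.21 (SE, 95% interval -0.81 to 0.071, edgeR adjusted p = 0.694), with 0.18 in control and -0.18 in cKO mice. S100b had 0.30 ± 0.21 (SE, 95% interval -0.14 to 0.74, edgeR adjusted p = 0.74). The highest S100b values were in SFN-fed cKOAstro replicates 4 and 1, at 336 and 307 CPM, the former being the library rich in oligodendrocyte markers. All 39 intervals included 0, and 28 of 39 excluded a 1.5-fold change in this fit without a term for library name. Without replicate 4 the S100b term was 0.20, and by limma-voom 0.13. The Dio2 term was 0.62 among numbered libraries alone and 0.065 ± 0.41 (SE, edgeR adjusted p = 0.9999) with the name prefix as a term, where the members' median was -0.20, beside 0.073 without it.

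**Figure D5:**
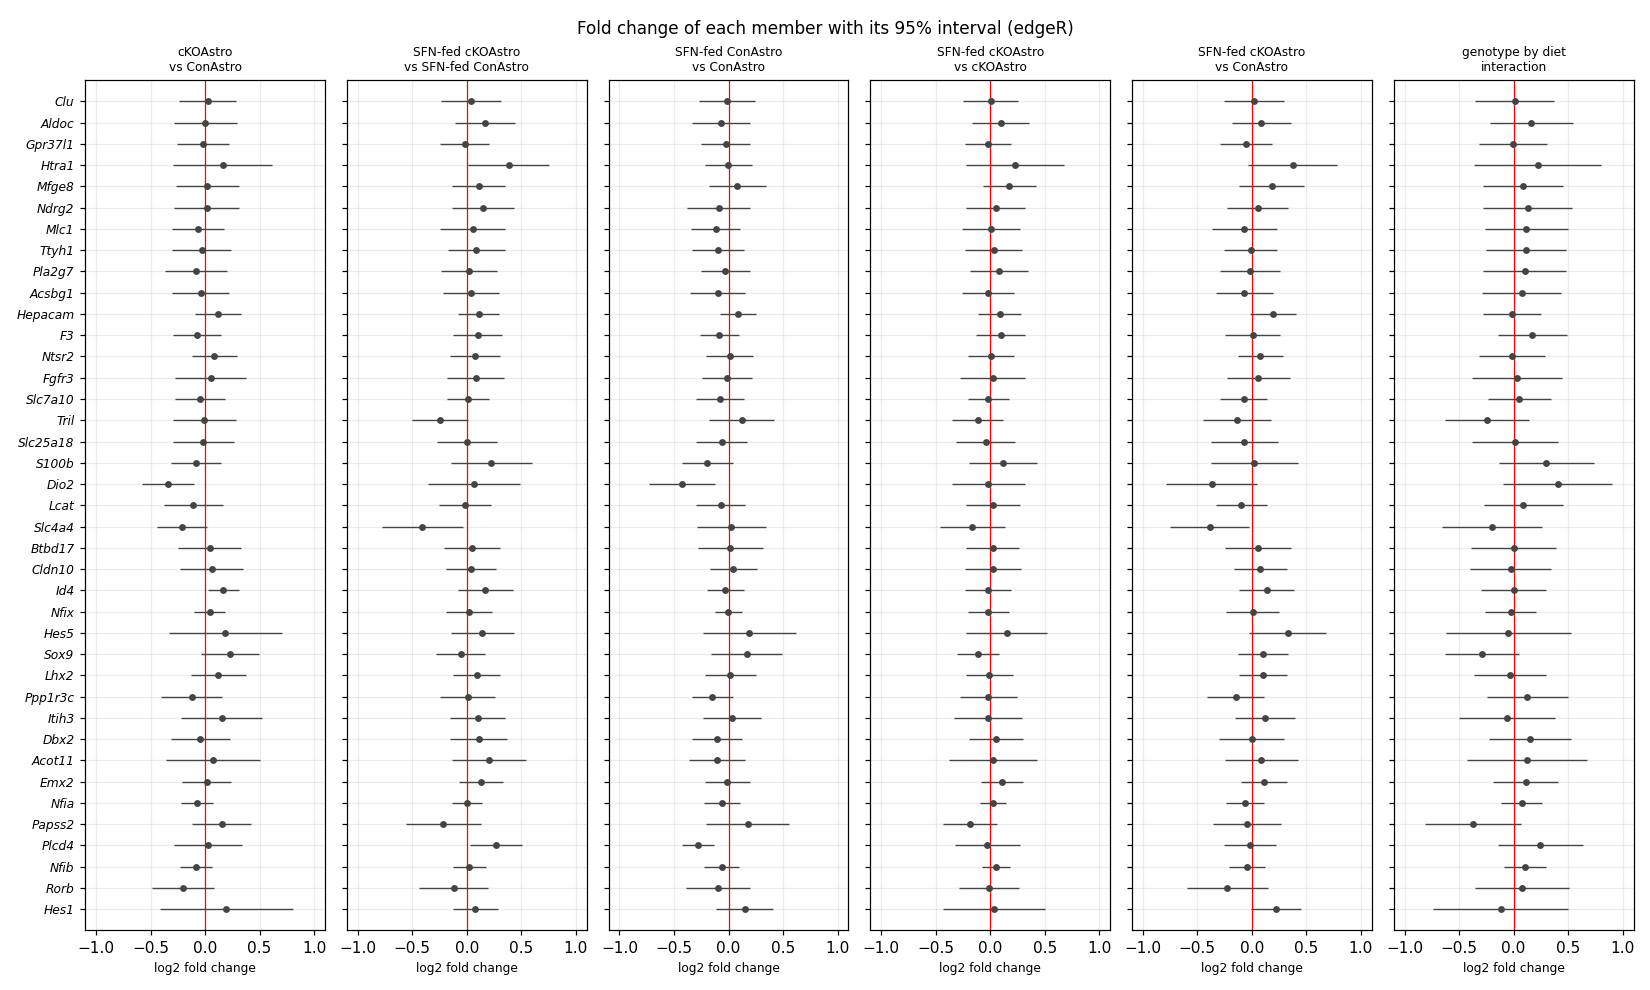
Log2 fold change (points) and 95% interval (lines) of the 39 members in 5 pairwise comparisons and for the genotype by diet interaction (edgeR), ordered by level in ConAstro. Per panel, 35 to 39 of the 39 points lay within 0.25 of 0. No member passed the adjusted threshold in any panel, and intervals that leave out 0 belong to Dio2, Id4, Slc4a4, Plcd4 and Htra1.

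Because the members shifted together with other astrocyte transcripts, every comparison was also fitted with the median level of the 18 other astrocyte genes in each library as a covariate, a choice made after the libraries had been seen. The count of members past the edgeR threshold stayed at 0 of 39 in all 6 fits. Of all genes, 4 passed in cKOAstro against ConAstro and 0 in each of the other comparisons. In cKOAstro against ConAstro, Dio2 had -0.35 ± 0.064 (SE, edgeR adjusted p = 0.698), beside ± 0.11 without the covariate, and Slc4a4 had -0.21 ± 0.065 (SE, edgeR adjusted p = 0.872), beside ± 0.11. Under SFN, Slc4a4 had -0.44 ± 0.10 (SE, edgeR adjusted p = 0.158) and Tril, a partner of Toll-like receptors, -0.26 ± 0.083 (SE, edgeR adjusted p = 0.158). Plcd4 had -0.25 ± 0.045 (SE, edgeR adjusted p = 0.726) in SFN-fed ConAstro against ConAstro. Between fits without and with the covariate, 2 to 7 members per comparison had log2 fold changes of opposite sign, all of size 0.039 or less. The members above 0 numbered 20 rather than 13 in SFN-fed ConAstro against ConAstro and 30 rather than 23 in SFN-fed cKOAstro against cKOAstro. The covariate is itself measured from these libraries, so the fit describes the members relative to other astrocyte RNA.

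The remaining members are given by role. Of the transport and membrane genes, Mlc1 and Hepacam, whose products form a junctional complex of astrocyte endfeet, Ttyh1, Cldn10, Slc7a10, a neutral amino acid exchanger, and Slc25a18, a mitochondrial glutamate carrier, had log2 fold changes between -0.12 and 0.19 over the 5 pairwise comparisons. For the receptors Fgfr3, which binds fibroblast growth factors, Ntsr2, for neurotensin, Gpr37l1 and F3, the tissue factor that starts coagulation, the range was -0.085 to 0.10. Gpr37l1, with the smallest relative SD, was at 2026 ± 201 CPM (SD, n = 4) in ConAstro, 2009.5 ± 271 CPM (SD, n = 7) in cKOAstro, 1997 ± 213 CPM (SD, n = 5) in SFN-fed ConAstro and 1975 ± 224 CPM (SD, n = 7) in SFN-fed cKOAstro. The enzymes Aldoc, Acsbg1, Ppp1r3c, which targets a phosphatase to glycogen, and Acot11, an acyl-CoA thioesterase, had values between -0.15 and 0.20. The secreted proteins Clu, Lcat, which esterifies cholesterol on lipoproteins, Itih3 and Pla2g7, a hydrolase of platelet-activating factor, lay between -0.11 and 0.15, and Ndrg2 and Btbd17 between -0.089 and 0.15.

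Genes around these factors were read from lists of the same pathways. None of 11 Notch pathway genes (receptors, ligands, RBPJ and its cofactors, HEY factors), 10 BMP pathway genes, 9 further glial transcription factors, 18 other astrocyte genes and 8 caudal regional genes passed the edgeR threshold in any of the 6 comparisons. Of the caudal genes, 5 were abundant enough to test. On the control diet, 8 of 11 Notch genes were above 0 (median 0.040), led in size by Hey2 at -0.26 ± 0.23 (SE, edgeR adjusted p = 0.981) and the ligand gene Dll1 at 0.24 ± 0.16 (SE, edgeR adjusted p = 0.981). For the BMP list, 2 of 10 were above 0, led by Id3, a target gene of BMP signalling, at 0.28 ± 0.12 (SE, edgeR adjusted p = 0.981). Under SFN, 3 of 11 Notch genes were above 0 in cKO against control mice (median -0.19), led by the ligand gene Jag1 at -0.57 ± 0.23 (SE, edgeR adjusted p = 0.21) and Heyl at -0.55 ± 0.17 (SE, edgeR adjusted p = 0.195). Both are also known from mural and endothelial cells, whose markers had log2 fold changes below 0 in the same comparison. The part of those cells in the values of Jag1 and Heyl was not tested. Of the BMP genes 2 of 10 were above 0, led by the receptor gene Bmpr2 at -0.52 ± 0.19 (SE, edgeR adjusted p = 0.195) and Smad9 at -0.42 ± 0.15 (SE, edgeR adjusted p = 0.195). Among the further glial factors, Gli3 and Sox6, a Hedgehog effector and a partner of SOX9, had -0.39 ± 0.16 (SE, edgeR adjusted p = 0.222) and -0.37 ± 0.14 (SE, edgeR adjusted p = 0.204). For the other astrocyte genes the largest were the connexin gene Gjb6 at 0.58 ± 0.23 (SE, edgeR adjusted p = 0.207) and the metallothionein gene Mt3 at 0.46 ± 0.15 (SE, edgeR adjusted p = 0.195), and the list's median was 0.041.

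In control mice on the diet, 8 of 11 Notch genes and 7 of 10 BMP genes were above 0 (medians 0.12 and 0.041). Id1 and Id3, relatives of the member Id4, had 0.31 ± 0.12 (SE, edgeR adjusted p = 0.762) and 0.24 ± 0.085 (SE, edgeR adjusted p = 0.762), while Id4 itself had -0.029. Jag1 had 0.45 ± 0.24 (SE, edgeR adjusted p = 0.794). In cKO mice on the diet, 2 of 11 Notch genes were above 0 (median -0.11), with Heyl at -0.42 ± 0.12 (SE, edgeR adjusted p = 0.459) and Notch2 at -0.26 ± 0.12 (SE, edgeR adjusted p = 0.459). The interaction term of Heyl was -0.62 ± 0.24 (SE, edgeR adjusted p = 0.673). Of regional genes, Emx1, a dorsal telencephalic factor, was at 0.24 ± 0.29 (SE, edgeR adjusted p = 0.981) on the control diet and Irx2, a caudal one, at 0.87 ± 0.52 (SE, edgeR adjusted p = 0.351) under SFN, from levels of 3.30 and 0.252 CPM on average.

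Markers of other cells were read in the same fits, and none of the 9 neuronal, 8 microglial, 8 oligodendrocyte, 5 precursor (OPC), 8 endothelial, 7 mural, 5 fibroblast, 5 ependymal and 9 dissociation-response genes passed the edgeR threshold in any of the 6 comparisons. Of 4 red blood cell genes 1 was abundant enough to test, and it did not pass. In cKOAstro against ConAstro, 8 of 8 endothelial and 8 of 8 microglial markers had log2 fold changes below 0 (medians -0.43 and -0.24). So did 9 of 9 dissociation-response genes (median -0.14). Above 0 were 9 of 9 neuronal, 5 of 5 ependymal, 5 of 5 fibroblast and 6 of 7 mural markers (medians 0.31, 0.36, 0.14 and 0.22). In SFN-fed ConAstro against ConAstro, where 26 of 39 members were below 0, 8 of 8 endothelial, 7 of 7 mural and 5 of 5 fibroblast markers were above 0 (medians 0.59, 0.34 and 0.40). Also above 0 were 8 of 8 microglial, 5 of 5 OPC and 8 of 9 neuronal markers (medians 0.19, 0.23 and 0.30). Ependymal markers were below 0 in 5 of 5 cases (median -0.35). In SFN-fed cKOAstro against cKOAstro, 8 of 8 oligodendrocyte and 8 of 8 endothelial markers were above 0 (medians 0.32 and 0.26). So were 8 of 9 dissociation-response genes (median 0.14). Below 0 were 5 of 5 fibroblast, 5 of 5 ependymal, 6 of 7 mural and 4 of 5 OPC markers (medians -0.46, -0.44, -0.40 and -0.28). Microglial markers summed to 280.4 to 3015 CPM and neuronal markers to 193 to 881 CPM over the 23 libraries. The part of these cells in the members' values was not tested.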

How the data were processed

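The authors captured ACSA-2+ astrocytes from cortex, extracted RNA, and sequenced poly(A) libraries as read pairs. Reads were checked with FastQC and aligned to mm10 with STAR, and the authors deposited its gene counts as 1 table of whole-number counts per gene symbol and library. Versions, annotation and the strand setting are not given in the sources used here, so reads of overlapping antisense genes cannot be told apart. The 23 libraries were grouped by their labels.

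Genes were filtered with filterByExpr (minimum count 10, minimum total 15), scaled with TMM and tested with edgeR 4.0.16 (R 4.3.3) by the quasi-likelihood test, with the 2 groups compared in each fit and all 4 groups for the interaction. Benjamini-Hochberg adjustment covered all genes tested, at 0.05. DESeq2 1.42.0, the tool of the study's methods, and limma 3.58.1 (voom with quality weights) were alternatives. All 39 members had exon lengths from GENCODE M21 (GRCm38), which may not be the annotation used for counting. log2 CPM used a prior count of 2. The edgeR step was tested on simulated counts for the 2 comparisons of genotypes on the same diet. These counts were drawn for each gene separately, so they held no shift shared by genes of a library and no effect of library name. The rule for naming genes took the 11 transcription factors, the 5 highest and 5 lowest members by level, the 3 with the largest and the 3 with the smallest SD, any member past the threshold and the 3 largest fold changes in each comparison. For pathway lists it took the 2 largest fold changes, of which examples are given. Other members were named after their values were seen. The members and lists were chosen with earlier results of these data known. The fits with other astrocyte genes as covariate, those by limma-voom without the 2 libraries against their labels, those also without cKOAstro replicate 2 and those with library name prefixes were added after the data were seen. Same-numbered libraries of different groups were not treated as pairs in the main fits. Counting error is small at these depths (46890715 to 391701247 counts), and the number of mice limits precision.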

Additional observations from a re-analysis of the deposited data

Results flagged for a closer look

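In 6 of 164 groups of values examined, 1 library stood apart from the rest of its group by Dixon's criterion, which chance alone meets in about 1 in 20 groups. Nfix was at 373.529 CPM in SFN-fed ConAstro replicate 1, a library against its label, and at 402.652 to 410.146 CPM in the other 4. Mlc1 was at 987.759 CPM in ConAstro replicate 2 and at 1084.07 to 1097.82 CPM in the other 3. Plcd4 was at 161.682 CPM in cKOAstro replicate 2, an Astro-named library, and at 85.9897 to 107.916 CPM in the rest. Itih3 was at 133.431 CPM in ConAstro replicate 3 against 179.678 to 180.974 CPM. Btbd17 was at 362.964 CPM in SFN-fed cKOAstro replicate 1 against 219.122 to 279.034 CPM. The 8 oligodendrocyte markers summed to 56203.9 CPM in SFN-fed cKOAstro replicate 4 and to 24091.6 to 34997.4 CPM in the other libraries of that group. No member's genotype by diet term passed the edgeR threshold.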

How the results depend on the processing

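For the members with the 3 largest fold changes or an unadjusted p under 0.05 in each comparison, the direction turned in the fit with the name prefix as a term, to 0.015 for Slc4a4 in cKOAstro against ConAstro and to -0.048 and -0.29 for Mfge8 and Htra1 in SFN-fed cKOAstro against cKOAstro, and under no other alternative run. In that fit the members' median moved to 0.29 in cKOAstro against ConAstro, -0.19 in SFN-fed cKOAstro against cKOAstro and -0.20 for the interaction, and 0 members were called. The cause was not tested. Members with fold changes nearer 0 also turned under other alternatives, 2 to 7 per comparison with other astrocyte genes as covariate. Under the alternatives other than the name prefix term, the members' median log2 fold changes lay between -0.086 and 0.16 and had either sign in 4 of the 6 comparisons. limma-voom with quality weights called 3 members in SFN-fed cKOAstro against SFN-fed ConAstro and 1 in SFN-fed cKOAstro against ConAstro, where edgeR called 0. The cause was not tested, and without the 2 libraries against their labels limma-voom called 0 in both. Every other alternative run (DESeq2, other scalings, no filter, all groups in the fit, covariates, libraries named 143 alone, numbered libraries alone, doubted libraries left out) called 0 members. Of all genes, DESeq2 called 3 to 367 per comparison and the rest of these runs at most 4. Leaving out 1 library at a time, 0 members were called in all 6 comparisons. Of all genes, 701 were called between the SFN-fed groups without SFN-fed cKOAstro replicate 3, and at most 4 in any other such fit. Over the fits with 1 library left out, the members' median log2 fold change lay between -0.039 and 0.059 in cKOAstro against ConAstro, 0.019 and 0.11 between the SFN-fed groups, -0.086 and 0.0083 for diet in controls, -0.030 and 0.053 for diet in cKO mice, -0.0070 and 0.049 in SFN-fed cKOAstro against ConAstro, and 0.011 and 0.099 for the interaction. With the replicate block 0 members were called, and the medians were 0.0127, 0.0694, -0.0132, 0.0232, 0.0208 and 0.0419 in the same order. Deviations of 29 same-numbered pairs correlated between -0.22 and 0.34, with 8 over 0.1. What such libraries share beyond the number was not stated. Scaling moved the median of all genes by less than 0.1. Counting error is small for members, with at least 1012 counts in each library.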
